A study of Drosophila melanogaster with 30 samples.

Results

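The comparison of the repo-Gal4 control with the UAS control set 2 parental genotypes side by side, neither of which overexpresses Bchs, the Blue cheese protein related to human WDFY3. It used 10 libraries of adult Drosophila melanogaster heads, 5 per genotype, out of 30 libraries in 6 groups of 5. The repo-Gal4 control carried the driver alone (repo-Gal4/+), and the UAS control carried the transgene alone (UAS-bchs::HA/+). Flies of both groups were 22 to 31 h past eclosion, and RNA came from whole heads homogenised in Trizol and cleaned on a column. The labels used here give neither the sex of the flies, the strain background, the insertion site of a transgene nor the number of heads in a library. Nor do they say whether replicates came from separate cultures, so p-values measure the spread between these libraries only. The members were found by the genotype label alone, with no use of expression values.

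Gal4 is a yeast transcription factor that acts on genes placed behind its binding site, the upstream activating sequence (UAS). A driver line makes Gal4 in chosen cells, and a responder line carries the UAS transgene, so the product is made only in offspring with both. The driver repo-Gal4 follows repo, a transcription factor gene of nearly all glia. The controls can differ in the inserted transgenes, in their marker genes and in whatever else differs between the parental strains. The comparison asks how far the controls of the glial overexpression experiment differ between themselves.

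Between 28685786 counts (repo-Gal4 control 4) and 84208964 counts (repo-Gal4 control 5) per library fell in genes. Libraries repo-Gal4 control 3 and UAS control 2 stood apart from the other 8. Their counts fell with transcript length, with a slope of -0.63 and -0.94 on the log2 scale per doubling of length, against -0.04 to 0.06 in the other 8. Summed levels of 14 neuronal marker genes were 1179 CPM (counts scaled to a common library size with edgeR's TMM factors) and 723 CPM in these libraries, against 7943 to 13128 CPM in the other 8. None of the 14 was at 0 in all 10 libraries. Summed levels of cytosolic ribosome genes were 75429 and 175012 CPM, against 30550 to 39565 CPM. In heads, fewer cells of a type and less RNA per cell cannot be told apart. The counts of called genes over the whole table are therefore given with all libraries and without these 2. Earlier results of these same data had shown these 2 to stand apart, so p-values without them may be too small. The 5 glial overexpression libraries, kept with and without these 2, had slopes of -0.24 to 0.02, with -0.24 in libraries 3 and 5. The part of transcript length or RNA quality in any difference was not tested.

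With all libraries, 99 of 11149 tested genes differed between the controls, which is 0.888% of those tested. A gene was called when its adjusted p from edgeR's quasi-likelihood test was under 0.05, in a fit of the 15 libraries of the glia dataset, which include the 5 glial overexpression libraries. In the repo-Gal4 control 51 genes were higher (0.457%) and 48 were lower (0.431%). The changes were large: the median absolute log2 fold change of the 99 was 1.88, and 36 higher and 42 lower genes differed at least 2-fold. The 10 libraries fell into groups that did not overlap for 96 of the 99, and for 329 (2.95%) of all tested genes. Mean levels were under 1 CPM in both groups for 25 of the 99. Exons of 28 of the 99 (28.3%) overlapped another gene, against 37.25% of tested genes, and reads there cannot be assigned with certainty. Among these are CG6602, CG6592, Hsp70Ab, tobi, CG30281 and lncRNA:CR45327. Without UAS control 2 the count was 291 (197 higher, 94 lower), and without repo-Gal4 control 1 it was 64 (39 higher, 25 lower).

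Without repo-Gal4 control 3 and UAS control 2, 484 of 11129 tested genes differed (4.35%). Of these, 305 were higher in the repo-Gal4 control (2.74%) and 179 were lower (1.61%). The added genes changed less: the median absolute log2 fold change of the 484 was 0.56, against 0.10 over all tested genes. The groups did not overlap for 475 of the 484, and for 2084 (18.7%) of all tested genes. Calls in both fits numbered 95, all with the same direction, 4 were made only with 15 libraries and 389 only with 13. Standard errors with 15 libraries were larger by a median ratio of 2.31. The median log2 fold change of all tested genes was -0.05 with 15 libraries and -0.01 with 13. Both fits kept the 5 glial overexpression libraries. With the 8 remaining controls alone 1275 of 10961 genes were called.

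**Figure D1:**
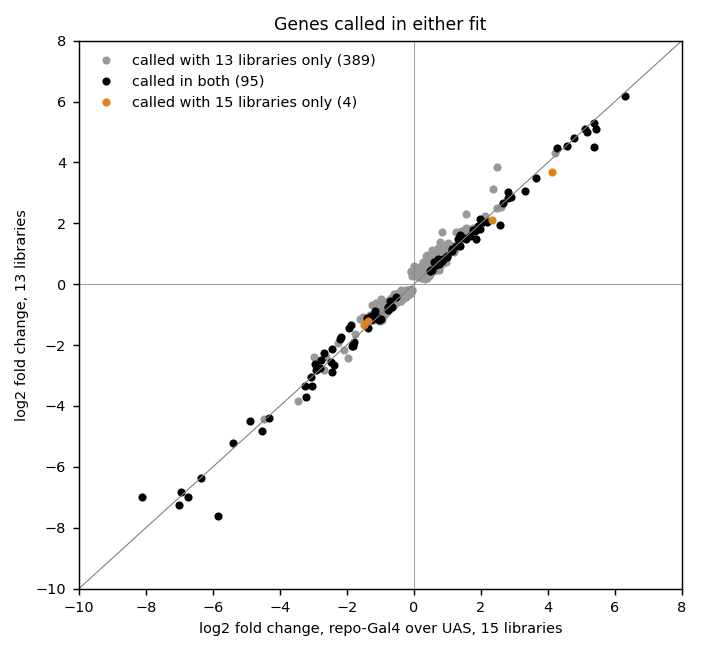
Log2 fold change (repo-Gal4 control over UAS control) of each gene called in either fit, with 15 libraries on the horizontal axis and 13 on the vertical axis. The 95 genes called in both reach the largest changes on each side, and the 389 called only with 13 libraries crowd near 0.

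The genes that define the genotypes were examined first. The levels of bchs (FBgn0043362, BDGP6.54 2L:5907169-5922776, plus strand), the gene placed behind the UAS, were 194, 181, 34.8, 175 and 187 CPM in repo-Gal4 controls 1 to 5. In UAS controls 1 to 5 they were 210, 17.0, 197, 210 and 199 CPM. The lowest libraries were repo-Gal4 control 3 and UAS control 2, and the groups overlapped through UAS control 2, without which every repo-Gal4 library lay below every UAS library. The log2 fold change came to -0.11 (SE 0.53, edgeR adjusted p 1.00) with 15 libraries and -0.14 (SE 0.06, adjusted p 0.247) with 13. The level of repo (FBgn0011701, 3R:18236192-18239602), whose regulatory DNA the driver is named for, was 61.3 ± 4.77 CPM in the repo-Gal4 control (SD, n = 5) and 63.2 ± 7.85 CPM in the UAS control. The log2 fold change of -0.04 (SE 0.12) did not pass the threshold either, nor did -0.16 (SE 0.05, adjusted p 0.084) with 13 libraries.

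The white gene, w (FBgn0003996; X:2790599-2796466 on the minus strand), encodes an ABC transporter subunit for eye pigment precursors and serves as an eye colour marker on many fly transgenes. It measured 190, 187, 254, 188 and 190 CPM in repo-Gal4 controls 1 to 5 and 6.19, 9.30, 7.04, 8.09 and 5.71 CPM in UAS controls 1 to 5. Every repo-Gal4 library lay far above every UAS library, with the highest value in repo-Gal4 control 3. The log2 fold change came to 4.79 (SE 0.19, edgeR adjusted p 4.94e-09), and 4.81 (SE 0.11, adjusted p 2.56e-11) without the 2 libraries. Of 19 tested eye pigment genes, w alone was called with 15 libraries, against 0.888% of all tested genes and 4.35% with 13. The list median was -0.03 on the log2 scale, near the -0.05 of all genes. With 13 libraries 2 more were called, both lower: Pu (Punch, a GTP cyclohydrolase of pteridine synthesis) at 531 ± 43.5 against 737 ± 49.1 CPM (SD, n = 4), and kar (karmoisin, an eye colour gene) at 132 ± 6.80 against 159 ± 4.12 CPM. Their log2 fold changes were -0.47 (SE 0.08, adjusted p 0.00313) and -0.27 (SE 0.05, adjusted p 0.00555).

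Beyond the marker gene, several of the strongest differences were close to presence in one control and absence in the other. Others, such as Hsp70Ab and CG15865, were detected in both groups. Among called genes with no overlap and a mean of at least 10 counts, the 10 higher genes with the largest change were sordd2, CG18577, asRNA:CR45600, CG32437, lncRNA:CR46216, w, lncRNA:CR44111, CG6602, CR44383 and Hsp70Ab. The log2 fold changes of these ran from 3.30 to 6.30.

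sordd2 (FBgn0052581, X:15796908-15799162, minus strand) measured 16.5, 24.6, 8.78, 14.2 and 19.6 CPM in the repo-Gal4 control. In UAS controls 1 to 5 it measured 0.109, 0, 0.417, 0.363 and 0.150 CPM. The lowest repo-Gal4 library, control 3, was still far above the highest UAS library. That is a log2 fold change of 6.30 (SE 0.62, edgeR adjusted p 7.66e-05). The pseudogene CR44383 lies 10 bp away from it (X:15796477-15796897, plus strand) and was also higher, at 0.907 ± 0.375 against 0.0694 ± 0.0653 CPM (log2 fold change 3.64, SE 0.66, adjusted p 0.0145). The annotation puts the pair on opposite strands, and the use of strand in counting is not given in the sources used here. The call of CR44383 was lost when only the 2 control groups were fitted (adjusted p 0.102).

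CG18577 (3R:11196092-11197285) measured 0.820, 1.10, 1.03, 0.714 and 0.720 CPM in the repo-Gal4 control and 0.0365, 0, 0, 0.0518 and 0 CPM in the UAS control. All 5 repo-Gal4 libraries exceeded all UAS libraries, 3 of which had no count. CG32437 (3L:21357683-21359867) showed the same split, at 1.23 ± 0.290 against 0.0323 ± 0.0532 CPM, with 3 UAS libraries at 0. CG6602 (3L:6072139-6073539) measured 6.41, 5.89, 9.44, 5.57 and 5.79 CPM against 0.219, 0.661, 0.296, 0.363 and 0.177 CPM. The groups of CG6602 were again far apart, with the highest value of each group in the libraries that stood apart. That is a log2 fold change of 4.28 (SE 0.31, edgeR adjusted p 3.19e-06).

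asRNA:CR45600 (3R:15136985-15140121, minus strand), an antisense RNA, measured 70.0, 75.3, 14.2, 62.6 and 70.5 CPM in the repo-Gal4 control. In the UAS control it measured 1.48, 0, 2.17, 2.08 and 1.31 CPM. The low repo-Gal4 value belongs to control 3 and the 0 to UAS control 2. Its call was lost with only the 2 control groups in the fit (edgeR adjusted p 0.0534). Its exons overlap CG3984, CG3987 and CG6912, so reads cannot be assigned to one of them with certainty. CG6912 was called too, at 66.6 ± 12.9 against 17.01 ± 2.51 CPM (log2 fold change 1.97, SE 0.17, edgeR adjusted p 1.51e-05). It is named because it neighbours the RNA, after its values were seen. lncRNA:CR46216 (3L:19243755-19251653) was at 3.34 ± 1.79 against 0.0940 ± 0.0698 CPM. lncRNA:CR44111 (X:8919640-8920467) was at 0.363 ± 0.155 CPM, while its UAS libraries held at most 2 counts each. Against a floor of 3 counts per library it was at least 8.81-fold higher.

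On the lower side the corresponding 10 genes were CR43105, CG14000, lncRNA:CR45680, lncRNA:CR46350, CG7542, CG6592, Lime, CG15865, CG9029 and Hsp70Ba. For 5 of them every repo-Gal4 library held at most 3 counts. Against that floor, by group means, CR43105 was at least 9.29-fold lower, CG14000 at least 11.1-fold and lncRNA:CR45680 at least 16.3-fold. lncRNA:CR46350 was at least 11.4-fold lower and CG7542 at least 6.23-fold. The UAS means of CR43105 and CG7542 were raised by UAS control 2, at 1.64 and 1.02 CPM. Without it they fell from 0.514 and 0.345 CPM to 0.233 and 0.175 CPM, so these folds depend on that library. UAS control 5 for CR43105 and UAS control 3 for CG7542 held 5 counts each. Most of the group were below 1 CPM in the UAS control as well.

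CG14000 (FBgn0031749, 2L:5908927-5910289, minus strand) lies within the span of bchs and overlaps its exons on the opposite strand. It had no count in repo-Gal4 controls 1 to 4 and 0.012 CPM in control 5. In UAS controls 1 to 5 it measured 0.584, 0.297, 0.579, 0.699 and 0.899 CPM, so the groups did not overlap (edgeR adjusted p 0.000107). bchs itself, on the other strand, was not called. CG9029 (2L:5886002-5886609), near bchs on the same arm, measured 0.0152, 0.110, 0.0634, 0.136 and 0.0840 CPM against 0.742, 0.595, 0.646, 0.647 and 0.668 CPM. Its repo-Gal4 libraries were all lower, with a log2 fold change of -3.06 (SE 0.55, adjusted p 0.0128).

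CG6592 (3L:6059658-6061378) measured 0.106, 0.0183, 0.0380, 0.0680 and 0.0120 CPM in the repo-Gal4 control and 0.669, 0.512, 1.17, 0.997 and 1.43 CPM in the UAS control. Its groups were separate (log2 fold change -4.32, SE 0.51, edgeR adjusted p 0.000452). CG6602, which differed in the other direction, lies near it, with CG42269 between them. Lime (2R:9871470-9873646), a zinc finger factor that links immunity and metabolism, measured 0.122, 0.128, 0.114, 0.204 and 0.252 CPM against 1.95, 0.495, 1.32, 2.46 and 1.54 CPM. The lowest UAS value, in control 2, still lay above all repo-Gal4 libraries (log2 fold change -3.24, SE 0.44, adjusted p 0.00156). CG15865 (X:16660898-16664455) was at 0.556 ± 0.261 against 5.12 ± 2.67 CPM, and its call was lost in 11 of the 15 fits without 1 library, with a highest adjusted p of 0.148. CR43105 lost its call in 11 of these fits and CG7542 in 5, with highest adjusted p of 0.0846 and 0.0980.

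**Figure D2:**
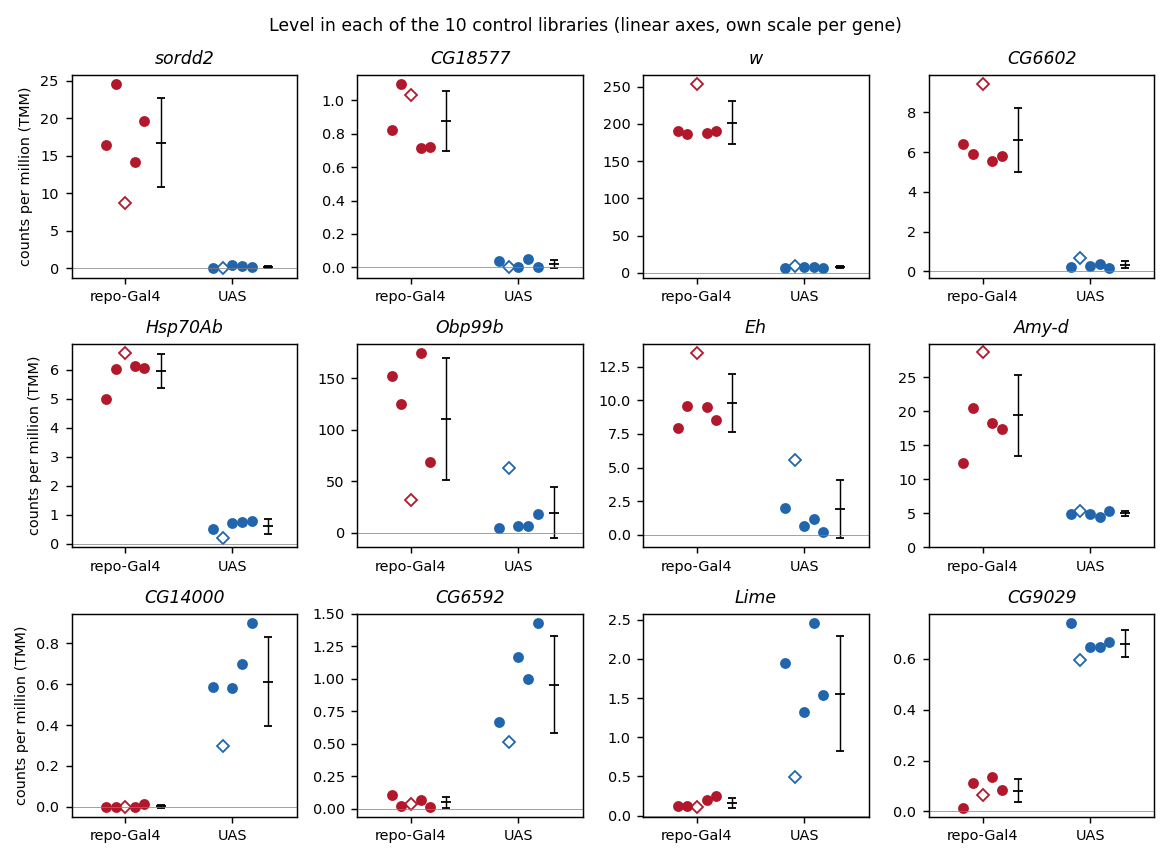
Level in CPM (TMM-scaled, linear axes) of 12 named genes in each of the 5 repo-Gal4 control libraries (red) and 5 UAS control libraries (blue), with the mean and SD of 5 in black. Open diamonds mark repo-Gal4 control 3 and UAS control 2; for sordd2, w and CG14000 the groups are far apart, while for Obp99b these diamonds bring the groups to overlap.

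The heat shock protein 70 copies moved in both directions. These genes encode heat-induced chaperones and are near-identical in sequence, so counts per copy are uncertain. Of 5 tested copies, 1 was higher and 1 lower in both fits, where 0.888% and 4.35% of all tested genes were called. Hsp70Ab (3R:11958535-11960909) measured 4.97, 6.03, 6.56, 6.12 and 6.04 CPM in the repo-Gal4 control and 0.511, 0.198, 0.727, 0.764 and 0.790 CPM in the UAS control. Its libraries formed separate groups, with a log2 fold change of 3.30 (SE 0.28, edgeR adjusted p 1.51e-05). Hsp70Ba (3R:12465453-12467776) was at 0.0301 ± 0.0225 against 0.270 ± 0.126 CPM (log2 fold change -3.05, SE 0.56, adjusted p 0.0146), a call lost without repo-Gal4 control 2 (adjusted p 0.0601). Summed over the 6 listed copies, levels were 7.29 to 8.53 CPM in the repo-Gal4 control and 1.85 to 3.57 CPM in the UAS control. The other heat shock and chaperone genes, 12 tested, held no call in either fit of edgeR, with 0 and 3 at an unadjusted p under 0.05, and 0 and 2 by DESeq2, with 15 and 13 libraries.

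The 5 further genes of largest change on each side in the 13-library fit included 4 that were called only there: Obp99b and Eh, which were higher, and CR32010 and GC2, which were lower. Obp99b (FBgn0039685, 3R:29716254-29716896), a secreted protein of the odorant-binding family, measured 152, 125, 31.5, 174 and 69.1 CPM in the repo-Gal4 control. In the UAS control it measured 4.34, 62.8, 6.88, 6.67 and 18.2 CPM. The groups overlapped only through repo-Gal4 control 3 and UAS control 2. The log2 fold change came to 2.48 (SE 0.72, edgeR adjusted p 0.200) with 15 libraries and 3.86 (SE 0.53, adjusted p 0.00126) with 13. Eh (eclosion hormone, a neuropeptide of the ecdysis pathway; 3R:17446642-17448858) measured 7.98, 9.56, 13.5, 9.52 and 8.51 CPM against 2.01, 5.57, 0.659, 1.15 and 0.191 CPM. The highest value of each group came from the libraries that stood apart. That is a log2 fold change of 2.36 (SE 0.60, adjusted p 0.125) with 15 libraries and 3.14 (SE 0.43, adjusted p 0.00126) with 13.

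The others of these genes were Ccp84Ag, Lsp1alpha and CG30281 on the higher side and ppk20, CG31482 and CG14691 on the lower side. ppk20, of the pickpocket family of sodium channels, had no count in the repo-Gal4 control and 0.231 ± 0.117 CPM in the UAS control, at least 4.18-fold lower. CG14691, CG31482 and CR32010 were also at the floor in the repo-Gal4 control, at least 7.26-fold, 5.14-fold and 10.03-fold lower. In CG14691 and CG31482 UAS control 2 had no count, which made the groups overlap with 15 libraries. The call of CG14691 with 15 libraries was lost in 13 of the 15 fits without 1 library and that of CG31482 in 4, with highest adjusted p of 0.233 and 0.0932. With 13 libraries, CR32010 lost its call in 8 fits without 1 library (highest adjusted p 0.121). GC2, a mitochondrial glutamate carrier, was at 0.0420 ± 0.0475 against 0.598 ± 0.143 CPM (SD, n = 4). It lost its call without repo-Gal4 control 5 (adjusted p 0.0649).

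Starch and sugar enzymes, which digest dietary carbohydrate, held 3 higher genes among 8 tested members with 15 libraries and 2 of 8 with 13, and none was lower. The list median was 0.31 and 0.20 on the log2 scale. Of all tested genes 0.888% were called with 15 libraries and 4.35% with 13. Amy-d and Amy-p, neighbouring alpha-amylase genes, share much of their sequence, so their counts may be split uncertainly. Amy-d (2R:17124764-17126369) measured 12.4, 20.5, 28.7, 18.3 and 17.4 CPM against 4.90, 5.4, 4.84, 4.48 and 5.27 CPM. Amy-p (2R:17118636-17120303) measured 3.80, 7.35, 25.4, 6.66 and 5.55 CPM against 1.57, 2.15, 1.39, 1.63 and 1.5 CPM. For both genes all repo-Gal4 libraries were above all UAS libraries and control 3 was the highest. The log2 fold changes were 1.97 (SE 0.20, edgeR adjusted p 0.000107) and 2.57 (SE 0.48, adjusted p 0.0180). Amy-p lost its call without UAS control 1, 3, 4 or 5 (highest adjusted p 0.0614) and with only the 2 control groups in the fit (adjusted p 0.0669). tobi, an alpha-glucosidase gene known as a target of brain insulin, measured 73.9, 58.4, 88.5, 28.6 and 79.5 CPM against 6.48, 9.79, 16.5, 9.45 and 23.2 CPM. The groups were separate but broad, and the log2 fold change of 2.33 (SE 0.49) passed with 15 libraries (adjusted p 0.0367) and not with 13 (2.12, SE 0.57, adjusted p 0.0642). Its call was lost in 8 of the 15 fits without 1 library (highest adjusted p 0.117).

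Detoxification genes, like all genes together (0.888% against 4.35%), held more calls without the 2 libraries. With 15 libraries 0 of 77 cytochrome P450 genes were called by edgeR, with 11 at an unadjusted p under 0.05 and 3 by DESeq2. With 13 libraries 6 of 78 were higher and 2 lower. They included Cyp9f3 at 19.1 ± 0.850 against 11.8 ± 0.770 CPM (SD, n = 4; log2 fold change 0.70, SE 0.07, adjusted p 8.94e-05), Cyp6d2 (0.85), Cyp4p3 (0.53) and Cyp4c3 (0.39). The list median, 0.03 on the log2 scale, was near that of all genes. Of 34 glutathione transferase genes 3 were higher with 13 libraries, GstD1 (log2 fold change 0.45), GstE6 (0.32) and GstT4 (0.49). With 15 libraries edgeR called 0 of the 34, with 2 at an unadjusted p under 0.05 and 1 by DESeq2.

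UDP-glycosyltransferases, which attach sugars to small molecules, held 2 higher genes among 25 in both fits. The share over all tested genes was 0.888% with 15 libraries and 4.35% with 13. Ugt35C1 (3R:11126597-11128328) measured 34.7, 35.5, 50.6, 34.3 and 40.5 CPM against 8.25, 10.9, 9, 8.78 and 9.67 CPM. The repo-Gal4 libraries lay above the UAS libraries without exception (log2 fold change 2.07, SE 0.15, edgeR adjusted p 1.98e-06). Ugt49C1 was at 39.8 ± 6.53 against 22.1 ± 1.78 CPM (log2 fold change 0.85, SE 0.17, adjusted p 0.0215). It lost this call without UAS control 1 or 3 or without repo-Gal4 control 3, 4 or 5 (highest adjusted p 0.0631).

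Cuticle protein genes, which build the exoskeleton that hardens in young adults, held 2 higher and 2 lower genes among 59 with 15 libraries. With 13 libraries 8 were higher and 4 lower among 57, and the list median was 0.14 on the log2 scale. All tested genes were called at 0.888% with 15 libraries and 4.35% with 13. Ccp84Ag (3R:6686728-6688039) measured 17.8, 19.5, 14.9, 19.7 and 15.1 CPM against 2.34, 3.53, 2.30, 2.19 and 2.02 CPM. Its groups were far apart (log2 fold change 2.81, SE 0.16, edgeR adjusted p 2.19e-07). Its neighbour Ccp84Ad was higher as well, at 2.09 ± 0.378 against 0.802 ± 0.225 CPM (1.38, SE 0.26, adjusted p 0.0164), a call lost without repo-Gal4 control 1 or UAS control 3 or 4 (highest adjusted p 0.0567). Cpr50Ca (log2 fold change 2.54, SE 0.23) and Cpr72Ec (1.30, SE 0.16) were higher with 13 libraries only. Cpr92F was lower, at 45.5 ± 9.44 against 90.2 ± 7.56 CPM (log2 fold change -0.99, SE 0.17, adjusted p 0.00951), and so was Cpr64Ac (-1.12, SE 0.20, adjusted p 0.0124).

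Genes of taste and smell were read next, against the 0.888% of all genes called with 15 libraries and 4.35% with 13. Obp56a, another odorant-binding protein, was lower at 3.13 ± 0.392 against 7.63 ± 2.50 CPM (log2 fold change -1.28, SE 0.22, edgeR adjusted p 0.0119), the only one of 32 of its family called with 15 libraries. With 13 libraries 1 of 33 was higher and 1 lower. Among 95 tested chemoreceptors 1 was called with 15 libraries, Gr61a, a sugar receptor gene, at 0.176 ± 0.0549 against 0.453 ± 0.0783 CPM (-1.37, SE 0.28, adjusted p 0.0330). It lost the call in 10 of the 15 fits without 1 library (highest adjusted p 0.129) and with only the 2 control groups in the fit (adjusted p 0.0846). With 13 libraries the only call of 96 was Gr64a, another sugar receptor gene, which was higher at 0.768 ± 0.106 against 0.217 ± 0.123 CPM (1.81, SE 0.41, adjusted p 0.0223). That call was lost in 6 of 13 fits without 1 library (highest adjusted p 0.0766).

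Glial markers, 15 tested, held no call with 15 libraries by edgeR (0 at an unadjusted p under 0.05, 0 by DESeq2) and 2 higher genes with 13. moody, a receptor gene of the glia that form the blood-brain barrier, was at 129 ± 1.88 against 93.5 ± 0.723 CPM (SD, n = 4; log2 fold change 0.47, SE 0.05, adjusted p 0.000144). bnb (bangles and beads) was at 1636 ± 117 against 1261 ± 12.1 CPM (0.38, SE 0.07, adjusted p 0.00494). With 13 libraries 5 of the 15 were under 0.05 before adjustment and DESeq2 called 4, and with 15 libraries limma voom with quality weights called 6. Over all tested genes 4.35% were called with 13 libraries, and 1625 of 11129 were under 0.05 before adjustment. Voom called 1669 of 11149 genes with 15 libraries. The list median with 13 libraries was -0.03 on the log2 scale, with members in both directions. Of 14 neuronal markers none was called in either fit, with 0 at an unadjusted p under 0.05 and 0 by DESeq2 in both.

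Further lists held 1 to 2 calls, against 0.888% of all tested genes with 15 libraries and 4.35% with 13. Of 13 fat body genes, Lsp1alpha, a larval storage protein gene, was higher in both fits (0.638 ± 0.190 against 0.0842 ± 0.0297 CPM; log2 fold change 2.89, SE 0.43, adjusted p 0.00350). With 13 libraries to (takeout, a secreted protein linked to feeding and circadian output) was higher as well, at 46.6 ± 5.61 against 30.4 ± 1.85 CPM (0.63, SE 0.10, adjusted p 0.00224). Of 15 phototransduction genes inaD, a scaffold of the photoreceptor signalling complex, was higher with 13 libraries only (0.22, SE 0.06, adjusted p 0.0457), and 10 of 13 fits without 1 library lost the call (highest adjusted p 0.143). Of 72 mitochondrial ribosome genes mRpL39 was higher (0.50, adjusted p 0.00256) and mRpL50 lower (-0.32, adjusted p 0.0441) with 13 libraries, the latter lost in 9 fits (highest adjusted p 0.147). Both overlap a neighbouring gene. Of 2 tested eggshell genes Cp19 was higher with 13 libraries (1.73, SE 0.37, adjusted p 0.0181), and lost the call in 3 fits (highest adjusted p 0.0679).

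Noncoding RNAs, which make no protein, were called in both directions. Over all tested genes 0.888% were called with 15 libraries and 4.35% with 13. With 15 libraries long noncoding RNAs held a larger share than all genes, and antisense RNAs a slightly smaller one. With 13 libraries antisense and long noncoding RNAs each held a smaller share than all genes. Of 244 antisense RNAs 1 was higher and 1 lower with 15 libraries, and of 447 long noncoding RNAs 4 were higher and 3 lower. With 13 libraries 3 of 243 antisense RNAs were higher and 4 lower, and of 441 long noncoding RNAs 7 were higher and 4 lower. asRNA:CR43463, which overlaps Pgant35A, was lower at 15.5 ± 4.25 against 32.3 ± 5.22 CPM (log2 fold change -1.05, SE 0.18, adjusted p 0.00900). lncRNA:CR45242 (3L:10269482-10270353) measured 0.137, 0.147, 0.0634, 0.136 and 0.372 CPM in the repo-Gal4 control and 1.03, 1.29, 1.33, 1.18 and 1.23 CPM in the UAS control. Its groups were separate (-2.78, SE 0.36, adjusted p 0.00104). lncRNA:CR45327 was higher, at 2.63 ± 0.943 against 0.687 ± 0.290 CPM (1.93, SE 0.34, adjusted p 0.0119), a call lost with only the 2 control groups in the fit (adjusted p 0.102). With 13 libraries asRNA:CR45161 was lower (-0.64) and asRNA:CR45209 higher (0.51).

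**Figure D3:**
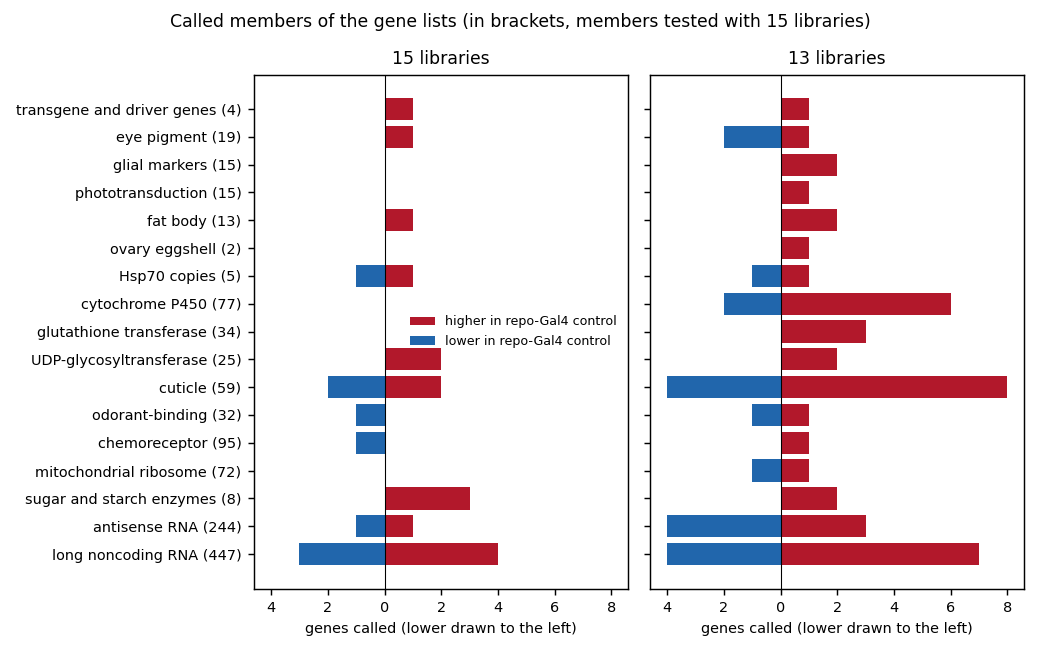
Number of members of each gene list called higher (red, to the right) or lower (blue, to the left) in the repo-Gal4 control, with 15 libraries and with 13, for the 17 lists with a call in either fit. Numbers in brackets are members tested with 15 libraries; cuticle genes reach 8 higher and 4 lower, and cytochrome P450 genes 6 higher and 2 lower, with 13 libraries.

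The other 19 of the 36 lists held no call by edgeR in either fit. Of their 361 members tested with 15 libraries, 16 were under 0.05 before adjustment and DESeq2 called 5. With 13 libraries these counts were 32 and 9 of 359. Over all tested genes, 640 of 11149 and 1625 of 11129 were under 0.05 before adjustment with 15 and 13 libraries. With 15 libraries limma voom with quality weights called 33 members of these lists, and 1669 of 11149 genes. Muscle genes, 16 tested, made up 10 of the 32. Besides neuronal markers and chaperones they covered blood cells, muscle, female and male markers, gut proteases, the male accessory gland, antimicrobial peptides, Bomanins, peptidoglycan recognition, Turandot genes, the clock, the cytosolic ribosome, the respiratory chain, the mitochondrial genome, the proteasome, autophagy and the ecdysone response. Their medians with 13 libraries ran from -0.13 to 0.75 on the log2 scale.

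The antimicrobial peptides had the highest of these medians, and it was far lower without the 2 libraries that stood apart. With 15 libraries the median log2 fold change of 13 tested peptides was 4.04, yet no gene was called, with 9 under 0.05 before adjustment and 4 by DESeq2. Their summed level was 1478 CPM in repo-Gal4 control 3 and 50.1 to 73.1 CPM in the other 4 repo-Gal4 libraries. It was 102 CPM in UAS control 2 and 33.7 to 42.5 CPM in the other 4 UAS libraries, so the groups did not overlap without the 2 libraries. Drs, which encodes the antifungal peptide drosomycin, measured 20.8, 19.5, 204, 25.7 and 19.1 CPM against 11.7, 31.5, 13.6, 10.9 and 13 CPM. With 13 libraries the list median of 12 tested peptides was 0.75 and the lowest log2 fold change 0.19, with no gene under 0.05 before adjustment and 0 by DESeq2. Cytosolic ribosome genes had a median of -0.60 with 15 libraries and -0.08 with 13, with 0 calls and 0 genes under 0.05 before adjustment in both.

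Markers of sex and of other tissues were read for admixture and for an unequal share of males. Summed levels of 3 female markers ranged from 9607 to 62018 CPM in the repo-Gal4 control and from 23400 to 100613 CPM in the UAS control. The male markers ranged from 99.9 to 701 CPM and from 71.9 to 722 CPM. The highest female and the lowest male sum of each group came from repo-Gal4 control 3 and UAS control 2. Without these libraries the female sums were 9607 to 43854 and 23400 to 45316 CPM. The male sums were then 571 to 701 and 629 to 722 CPM. None of the 6 sex marker genes was called, and none was under 0.05 before adjustment or called by DESeq2 in either fit. Yp1 (yolk protein 1) was at 15424 ± 8698 against 20083 ± 14401 CPM, and at 12545 ± 6754 against 13811 ± 3783 CPM without the 2 libraries. The only tested Y-linked gene, FDY, was higher in the repo-Gal4 control, at 0.0760, 0.0917, 0.431, 0.306 and 0.0480 CPM against 0.0122 CPM in UAS control 1 and 0 in the other 4 (edgeR adjusted p 0.00673). By group means, with repo-Gal4 control 3 the highest, it was at least 4.62-fold higher than a floor of 3 counts per library. FDY is named after its values were seen. In the neuron dataset, described below, FDY was at 2.87 ± 1.71 CPM in the driver control and 0.0340 ± 0.0239 CPM in the UAS control. Glial overexpression libraries had 0.178 to 0.270 CPM. FDY arose as a copy of an autosomal gene, so reads may be shared. Accessory gland genes summed to 4.39 to 10.4 CPM in the repo-Gal4 control and 6.16 to 20.7 CPM in the UAS control, leaving out Acp1, a cuticle protein gene that the name pattern took in. Gut proteases summed to at most 0.924 and 1.07 CPM. The part of sex ratio in the differences was not tested.

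The called genes were spread unequally over the chromosome arms. With 15 libraries 40 of 2737 tested genes on 3R were called (1.46%), 25 of 2192 on 3L (1.14%), 13 of 1826 on X (0.712%), 14 of 2256 on 2R (0.621%) and 6 of 1974 on 2L (0.304%), against 0.888% overall. With 13 libraries the order of the autosomal arms was the same, at 5.82% on 3R, 4.89% on 3L, 3.33% on 2R and 3.05% on 2L, and X stood at 4.44%. On X 11 called genes were higher and 2 lower with 15 libraries, and 64 were higher and 17 lower with 13. In bins of 4 Mb along 3R, the share was highest between 12 and 16 Mb, at 13 of 396 genes (3.28%), and 35 of 398 (8.79%) with 13 libraries. These shares are descriptions without a test, since neighbouring genes are not independent.

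**Figure D4:**
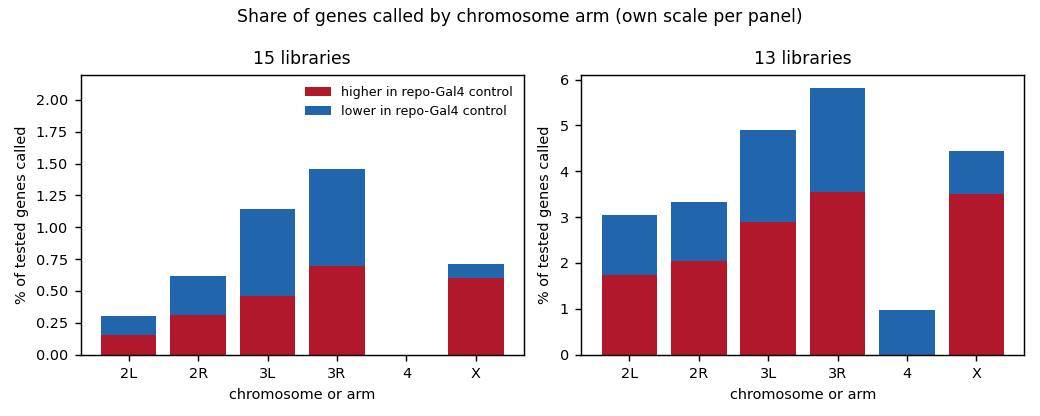
Percent of tested genes called on each chromosome arm, split into genes higher (red) and lower (blue) in the repo-Gal4 control, with 15 libraries on the left and 13 on the right, each on its own scale. 3R has the highest bar in both, at 1.46% and 5.82%, and most of the X bar is red.

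Some called genes were neighbours. Among the 99 called with 15 libraries, 10 pairs lay within 20 kb with no other called gene between them, and they involved 19 genes. In 9 pairs both genes differed in the same direction. They included sordd2 with CR44383, Amy-p with Amy-d, Ccp84Ag with Ccp84Ad, and CG6912 with asRNA:CR45600. On 3L CG6592, CG42269 and CG6602 lay in a row, the first lower and the others higher, CG42269 by 0.52 on the log2 scale (edgeR adjusted p 0.0367).

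The neuron dataset offers a second comparison of the same kind, a driver control (nSyb-Gal4, active in neurons) against its own UAS control of the same transgene. It shares no library with the glia dataset and was extracted without the Trizol step. In it 2759 of 10778 tested genes differed (25.6%). The share of counts from the mitochondrial genome was 1.55 to 9.97% in its UAS control and 4.66 to 9.63% in the nSyb-Gal4 control, and its part in that count was not tested. Of the 99 genes called with repo-Gal4, 92 were tested with nSyb-Gal4. Of these, 69 (75.0%) were called in the same direction, 2 in the opposite direction and 21 were not called. The 69 made up 2.52% of the 2734 nSyb-Gal4 calls that were tested in both. Of the 475 genes called with 13 libraries and tested in both, 273 (57.5%) were called in the same direction and 23 in the opposite one.

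Genes with a change of similar size against both UAS controls included several of the strongest. sordd2 was at 66.5 ± 3.47 CPM with nSyb-Gal4 and 1.09 ± 1.54 CPM in its UAS control (SD, n = 5), a log2 fold change of 5.89 (SE 0.64, edgeR adjusted p 3.63e-05). The difference between the drivers, 0.38 (SE 0.98), did not pass the threshold. CG18577 was at 0.922 ± 0.170 against 0.0469 ± 0.0422 CPM, CG6592 at 0.0452 ± 0.0200 against 1.30 ± 0.174 CPM, and CG15865 at 0.454 ± 0.227 against 6.57 ± 1.24 CPM. lncRNA:CR46350 (log2 fold change -5.87, SE 0.43), Lsp1alpha (3.27, SE 0.42), Obp99b (3.45, SE 0.53) and Amy-d (1.69, SE 0.28) also passed with nSyb-Gal4 in the same direction. ncd, a kinesin motor gene chosen after its values were seen, was at 4.04 ± 0.794 against 22.7 ± 1.84 CPM in the glia dataset and 3.44 ± 0.171 against 20.5 ± 1.54 CPM in the neuron dataset.

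The difference between the 2 driver contrasts itself was tested in a fit of all 30 libraries, where 102 of 11137 genes passed (0.916%). Without UAS control 2 of the glia dataset 280 passed, and 367 (211 higher, 156 lower) without that library and repo-Gal4 control 3. Extraction and dataset cannot be told apart from the driver in this difference. Of the 99 genes 30 passed it: for 27 the change with nSyb-Gal4 was smaller or opposite, and for 3 it was in the same direction and larger. The 99 were selected by their repo-Gal4 contrast in the same glia libraries. That choice by itself favours a smaller change with nSyb-Gal4, so no conclusion is drawn from these counts. The gene w was at 15.97 ± 0.812 CPM with nSyb-Gal4 against 6.01 ± 0.0892 CPM, and its difference of contrasts was 3.37 (SE 0.17, edgeR adjusted p 1.43e-13). Hsp70Ab was at 0.588 ± 0.116 against 0.928 ± 0.528 CPM in the neuron dataset (difference 3.95, SE 0.43, adjusted p 1.87e-06). Ugt35C1, at 10.1 ± 1.94 against 10.5 ± 1.92 CPM, differed by 2.11 (SE 0.23, adjusted p 2.25e-06). CG6602 was at 0.00360 ± 0.00805 against 0.247 ± 0.0369 CPM (adjusted p of the difference 4.48e-11), low in both groups there.

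Smaller sets went the other way or differed in part. lncRNA:CR45242 stood at 1.39 ± 0.216 against 1.47 ± 0.344 CPM in the neuron dataset (difference -2.70, SE 0.37, adjusted p 5.11e-05). Its low level was thus seen in the repo-Gal4 control and not in the nSyb-Gal4 control. Glial overexpression flies, which also carry repo-Gal4, were at 1.26 ± 0.292 CPM. CG9029 was lower with both drivers, but by 2.32 more on the log2 scale with repo-Gal4 (adjusted p 0.0173), and lncRNA:CR45680 by 3.42 more (adjusted p 0.00263). Pu was lower with repo-Gal4 and higher with nSyb-Gal4, at 997 ± 110 against 731 ± 93.0 CPM (difference -0.91, SE 0.14, adjusted p 0.000381). Ugt49C1 was higher with both and more so with nSyb-Gal4 (83.5 ± 7.71 against 27.2 ± 2.43 CPM; difference -0.78, SE 0.18, adjusted p 0.0267). The differences of Ccp84Ag (1.36), Cpr72Ec (1.26), Cpr64Ac (-1.58), Obp56a (-1.20) and asRNA:CR45209 (0.71) passed as well.

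**Figure D5:**
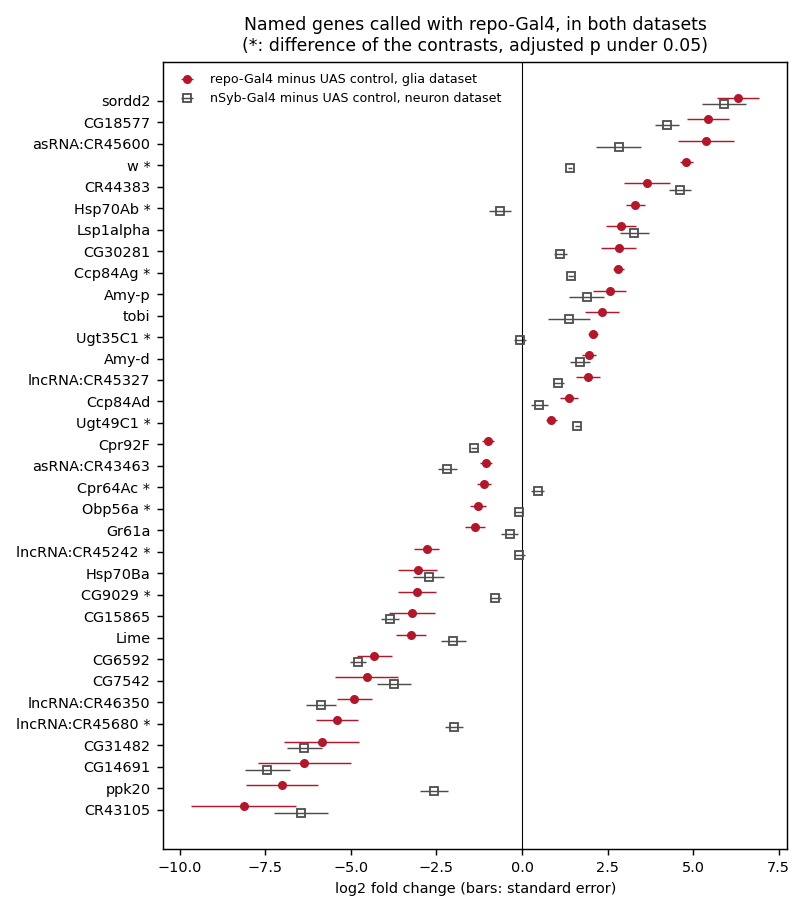
Log2 fold change with standard error of 34 named genes called with repo-Gal4 and tested in both datasets: repo-Gal4 minus UAS control in the glia dataset (red circles) and nSyb-Gal4 minus UAS control in the neuron dataset (open squares). Asterisks mark the 10 genes whose difference of contrasts passed; the symbols lie near each other for sordd2 and CG6592 and far apart for w and Hsp70Ab.

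Glial overexpression flies carry both parental chromosomes, and their levels are given beside those of the controls as values. Their libraries 2, 3 and 5 had length slopes of -0.11, -0.24 and -0.24, whose part in these levels was not tested. For sordd2 (18.7 ± 4.82 CPM), Hsp70Ab (6.73 ± 0.712 CPM), Ugt35C1 (35.4 ± 4.76 CPM), Ccp84Ag (20 ± 1.48 CPM) and CG6602 (4.89 ± 0.404 CPM), these levels were nearer to the repo-Gal4 control. For CG6592 (0.893 ± 0.333 CPM), CG14000 (0.501 ± 0.252 CPM) and lncRNA:CR46350 (0.749 ± 0.0803 CPM) they were nearer to the UAS control. For Obp99b (28.7 ± 12.9 CPM) they were also nearer to the UAS control, with control means of 110 CPM for repo-Gal4 and 19.8 CPM for UAS. For Amy-d (10.6 ± 2.15 CPM) they lay between the control means of 19.5 and 4.98 CPM. CG15865 was at 0.0618 ± 0.0844 CPM, below both controls, and ncd at 35.2 ± 2.06 CPM, above both.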

How the data were processed

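Raw read counts per gene, as deposited by the authors, were used for the 15 libraries of the glia dataset and the 15 of the neuron dataset. Per the submitters' processing notes, STAR, HTSeq and the build BDGP6 were used; versions, annotation release and strand setting are not given in the sources used here. Rows without a FlyBase gene identifier were left out (5.61 to 8.13% of a library were special counters in the glia dataset). Symbols matched 17790 of 17869 genes, and coordinates are from the Ensembl annotation BDGP6.54.

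Counts were tested with edgeR 4.0.16 in R 4.3.3 (filterByExpr, TMM, robust quasi-likelihood F test, Benjamini-Hochberg adjustment over all tested genes, threshold 0.05), with limma 3.58.1 and DESeq2 1.42.0 as alternatives. All groups of a dataset shared 1 fit without covariates. The standard error (SE) is the one implied by the F statistic. CPM are computed here from the deposited counts and given as mean ± SD. The length slope is the regression of a library's log2(CPM + 0.5), relative to the dataset's median, on log2 transcript length. Floors of 3 counts cover counting error only. Replicates differed by more than sampling noise in every pair (lowest chi-square per degree of freedom 12.7). Figures were drawn with Python 3.11.15 and matplotlib 3.10.9.

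The named genes are bchs, w and repo, the 10 called genes of largest change in each direction among those with no overlap of groups and a mean of at least 10 counts, 5 more of each from the 13-library fit, and per gene list up to 4 called members in each fit with the smallest p, or the most abundant member. The comparison, the 36 lists and the tests were chosen with earlier results of these data known. Alternatives were another scaling, no filter, DESeq2, library quality weights, a replicate block, only the control groups, and each library left out.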

Additional observations from a re-analysis of the deposited data

Results flagged for a closer look

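Of 170 groups of 5 libraries examined for the 85 named genes, 70 had a library far from the other 4 by Dixon's criterion, where chance flags about 1 in 20. UAS control 2 and repo-Gal4 control 3 account for 65 of the 70. The values are in CPM, and their cause was not tested.

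UAS control 2 was the highest of its group for ATPsynbeta at 5576, Acp1 at 1427, BomS2 at 503, CG7542 at 1.02, CR43105 at 1.64, Ccp84Ag at 3.53, Cp19 at 1.35, Cpr72Ec at 50.2, Cyp6d2 at 2.92, Cyp9f3 at 19.9, Drs at 31.5, GstD1 at 596, GstE6 at 97.5 and GstT4 at 103. It was also the highest for Hsc70-4 at 3048, Obp56a at 12, Obp99b at 62.8, PGRP-LA at 73.9, RpL3 at 4886, Rpn2 at 123, Yp1 at 45169, inaD at 787, kar at 245, mRpL39 at 43.2, mRpL50 at 44.2, mt:lrRNA at 102870 and to at 62.6. It was the lowest for Atg8a at 145, CG14691 at 0, Eip75B at 11.3, Hml at 43.2, Mhc at 2081, Pdp1 at 35.3, bchs at 17.0, bnb at 99.4, cpx at 158, lncRNA:roX1 at 35.5 and moody at 16.3.

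repo-Gal4 control 3 was the highest of its group for ATPsynbeta at 3816, Acp1 at 1670, Amy-p at 25.4, BomS2 at 632, CG31482 at 0.0127, CG6602 at 9.44, Cyp6d2 at 5.78, Cyp9f3 at 25.9, Drs at 204 and Eh at 13.5. It was also the highest for GstD1 at 533, GstE6 at 81.9, Hsc70-4 at 2153, RpL3 at 2004, Rpn2 at 121, inaD at 889, mRpL39 at 32.6, mt:lrRNA at 95281 and w at 254. It was the lowest for Atg8a at 375, Cpr50Ca at 0.571, Eip75B at 15.8, asRNA:CR45600 at 14.2, bchs at 34.8, bnb at 552, lncRNA:roX1 at 64.9 and moody at 89.3.

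Outside these libraries, Ccp84Ad was highest in UAS control 1 at 1.19, and CG30281 in repo-Gal4 control 1 at 5.29. In repo-Gal4 control 5 lncRNA:CR45242 was highest at 0.372, as were CG14000 and CG14691 at 0.012, which is 1 count in each case.

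For 14 named genes the contrast with the UAS control differed between the repo-Gal4 and the nSyb-Gal4 dataset by edgeR's test of that difference. On the log2 scale it was positive for w (3.37), CG6602 (9.59), Hsp70Ab (3.95), Ugt35C1 (2.11), Ccp84Ag (1.36), Cpr72Ec (1.26) and asRNA:CR45209 (0.71). It was negative for lncRNA:CR45680 (-3.42), lncRNA:CR45242 (-2.70), CG9029 (-2.32), Cpr64Ac (-1.58), Obp56a (-1.20), Pu (-0.91) and Ugt49C1 (-0.78). The value of CG6602 rests on an nSyb-Gal4 group near 0 counts and depends on the prior count. Most named genes were chosen by their repo-Gal4 contrast in the same glia libraries, which favours such differences.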

How the results depend on the processing

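Without a filter on low counts or with DESeq2's size factors in edgeR, the counts of called genes stayed within 1.5 times those reported in all 4 comparisons. For the 15-library comparison of 99 genes, DESeq2 called 235, the 2 control groups alone 55 (32 higher, 23 lower), and limma voom with library quality weights 1669 (946, 723). Fits without 1 library gave 64 to 291. With the 8 remaining controls alone, an alternative added after seeing the data for this comparison, 1275 genes were called (781, 494). Without the 2 libraries (484 genes), a fold change of at least 1.5 left 227 genes and DESeq2 called 801. The 2 control groups alone gave 1275, which is the same fit as the 8 remaining controls above and was planned for this comparison. Fits without 1 library gave 327 to 637. The nSyb-Gal4 comparison of 2759 genes rose to 4508 with voom and ranged from 1866 to 3743 without 1 library. The difference of drivers (102 genes) gave 183 with DESeq2, 367 without the 2 libraries and 87 to 280 without 1 library.

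No label says that a replicate number marks a shared batch. Deviations of same-numbered repo-Gal4 and UAS libraries correlated at 0.63, -0.73, -0.78, 0.43 and 0.66, but numbers 2 and 3 each hold 1 of the 2 libraries that stood apart, so whether the numbers pair the libraries cannot be read from these values. With the replicate block, 54 genes were called with 15 libraries (33 higher, 21 lower), 295 with 13 (195, 100) and 2238 in the neuron dataset. The block ended the calls of 14 named genes with 15 libraries: CR44383 (adjusted p 0.124), Amy-p (0.099), lncRNA:CR45327 (0.0921), CG9029 (0.0708), Cpr92F (0.0658), Cpr64Ac (0.0961), ppk20 (0.0732), Gr61a, CG15865, CG7542, CR43105, CG14691, CG30281 and CG31482. With 13 libraries it ended 6: kar (0.0565), asRNA:CR45209, mRpL50, inaD, CR32010 and GC2.

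No named gene reversed direction past the threshold. Of 1761 alternative values for named genes, 1611 kept their side of it, 143 lost a call and 7 gained one. Of 64 named genes that were called, 47 kept the call in every fit without 1 library. Depth limits the genes with under 1 CPM in both groups, where some libraries hold only a few counts.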
